A study of Mus musculus with 17 samples.

Results

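The genes described here are the 10 elastic fibre genes Eln, Fbn1, Fbn2, Fbln1, Fbln2, Fbln5, Efemp2, Ltbp1, Ltbp2 and Lox, chosen as a list by symbol and matched to Ensembl gene IDs. All 10 were found among the 37576 gene IDs of the immortalized set and the 33440 gene IDs of the Ras set. The 17 sequenced libraries come from MEFs, fibroblasts grown from C57bl/6 mouse embryos at E13.5. Every group, controls included, carried pRetroSuper-shp19ARF, a retrovirus with a hairpin against p19ARF that immortalizes the cells. The immortalized set has 3 libraries each of Usp28 +/+, +/- and -/- cells. The Ras set has 2 libraries each of 4 groups, all with pBabe-HRasG12V, an activated HRas: +/+, +/- and -/- cells with pWZL-GFP, and +/+ cells with pWZL-USP28. The design text calls the immortalized libraries biological triplicates and the Ras libraries duplicates, and the labels do not say how many embryos or cultures stand behind a group. Usp28 encodes a deubiquitinase, and the series title names it together with Fbw7, the substrate receptor of a ubiquitin ligase.

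An elastic fibre has a core of elastin laid down on a scaffold of microfibrils. Fibroblasts secrete the soluble precursor made from Eln, the microfibrils are built of fibrillins, fibulins guide the precursor onto them, and lysyl oxidase cross-links it into an insoluble polymer. Latent TGF-beta binding proteins sit on the same microfibrils, where some of them hold the growth factor TGF-beta in an inactive store.

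Sequence before the start sites of Ltbp2, Fbln5 and Fbln1 is shown because the levels of these genes set the Ras groups apart in different ways: Ltbp2 was high in -/-, and Fbln5 and Fbln1 were low in +/-. Each line holds the 200 bases from 250 to 51 bases before the RefSeq start (GRCm38.p6), read 5′ to 3′ on the gene's strand. The Ltbp2 window is chr12:84876542-84876741 (minus strand), the Fbln5 window is chr12:101819170-101819369 (minus strand, the upstream of its 2 starts) and the Fbln1 window is chr15:85205699-85205898 (plus strand, the upstream of its 2 starts). Capitals mark matches, on either strand, to TGANTCA (AP-1), GGGCGG (GC box), CAGAC (SMAD) or the interferon-stimulated response element.
Ltbp2: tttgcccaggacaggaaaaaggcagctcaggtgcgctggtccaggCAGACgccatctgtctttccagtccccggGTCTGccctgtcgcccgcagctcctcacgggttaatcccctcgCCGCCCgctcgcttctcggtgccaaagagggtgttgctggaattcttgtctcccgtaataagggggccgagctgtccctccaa
Fbln5: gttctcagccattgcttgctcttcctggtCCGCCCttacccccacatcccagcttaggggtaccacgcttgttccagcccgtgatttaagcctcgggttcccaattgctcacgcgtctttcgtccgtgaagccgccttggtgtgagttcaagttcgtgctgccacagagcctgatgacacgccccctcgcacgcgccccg
Fbln1: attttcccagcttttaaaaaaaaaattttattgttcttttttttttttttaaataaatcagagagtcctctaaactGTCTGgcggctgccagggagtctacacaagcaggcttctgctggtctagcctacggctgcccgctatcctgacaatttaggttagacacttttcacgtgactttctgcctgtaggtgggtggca
The Ltbp2 window held 2 SMAD matches and 1 GC box, the Fbln5 window 1 GC box and the Fbln1 window 1 SMAD match. The printed Fbln5 start was not found in a GENCODE transcript, and the window of its other start, which was, held 1 SMAD match and 0 GC boxes. Over the 12 start sites listed for 7 members, 7 windows held CAGAC, against 35.8% of all 32851 start sites, and 6 held GGGCGG, against 24.6%. Both Ltbp1 starts, whose windows are among those with CAGAC, were also not found in a GENCODE transcript. Both Fbln1 windows overlap and share a SMAD match, and 2 of the 3 Efemp2 windows overlap and share a GC box, so these matches are counted more than once. TGANTCA was in 0 of the 12 windows (5.6% of all start sites) and the interferon-stimulated response element in 1 (2.4%), that of Fbn1. The ends of the Fbn1 and Fbln2 windows lie within a GENCODE transcript of the same gene, so these 2 windows are not wholly upstream sequence. The letters are described only, and no binding was measured.

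Levels are given per group in RPM, a gene's share of the reads times 1000000, rebuilt from the concentration and ratio in the authors' deposited tables. Depth summed over a group's libraries was 11.36 to 13.89 M reads (M, 1000000), so 1 read is 0.0720 to 0.0880 RPM. All folds below are log2 ratios of the named group over +/+ from the authors' deposited tables with the sign turned. The standard error (SE) beside a fold is implied by the reads and by the common dispersion of that comparison, since values of single libraries were not used here. A gene was tested at a mean level of at least 1 RPM and called at an adjusted p under 0.05. The tables of both sets were normalized apart, so levels are compared only within a set. Usp28 RNA was read in every group. It was called in Ras -/- alone (26.5 to 14.8 RPM, log2 fold -0.83, SE 0.25, adjusted p = 0.00397), with 18.6 RPM in Ras +/- and 16.5, 9.96 and 13.3 RPM in immortalized +/+, +/- and -/- cells. With the USP28 vector it measured 26.4 RPM (95% interval of the log2 fold -0.42 to 0.42, adjusted p = 1.0), so overexpression is not seen in these values, and whether reads of the insert count toward the mouse gene is not given in the sources used here. The RNA thus does not check the labels, on which the directions below rest. Of 10 fibroblast markers, 10 reached 1 RPM in each immortalized group and 7 to 9 in the Ras groups, while 4 endothelial and 4 leukocyte markers each summed to at most 22.1 RPM in any group. Mesothelial and epithelial markers (10 genes, 9 of them at 1 RPM or more in each +/- group and 1 to 4 in the others) summed to 1905 RPM in immortalized +/- and 3014 RPM in Ras +/-, against 69.0 and 82.0 RPM in immortalized +/+ and -/-, 497 RPM in Ras +/+ and 7.45 RPM in Ras -/-. The groups also differed in sex-linked RNA, the +/- groups included. Against +/+ of the same set, Xist had a log2 fold of -3.72 in Ras +/- and 1.73 in immortalized +/-. Both Xist (89.7 and 126 RPM) and Eif2s3y were read in immortalized +/+ and -/- cells. Xist measured 336 RPM in Ras +/+ and 0.215 RPM in Ras -/-, and the Y-linked Eif2s3y 0 RPM (at most 0.264 RPM) and 22.4 RPM. In the immortalized set Eif2s3y measured 18.6 RPM in +/+, 14.9 RPM in -/- and 0 RPM (at most 0.242 RPM) in +/-. Genotype and the embryo a culture came from therefore cannot be told apart in these groups.

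**Figure D1:**
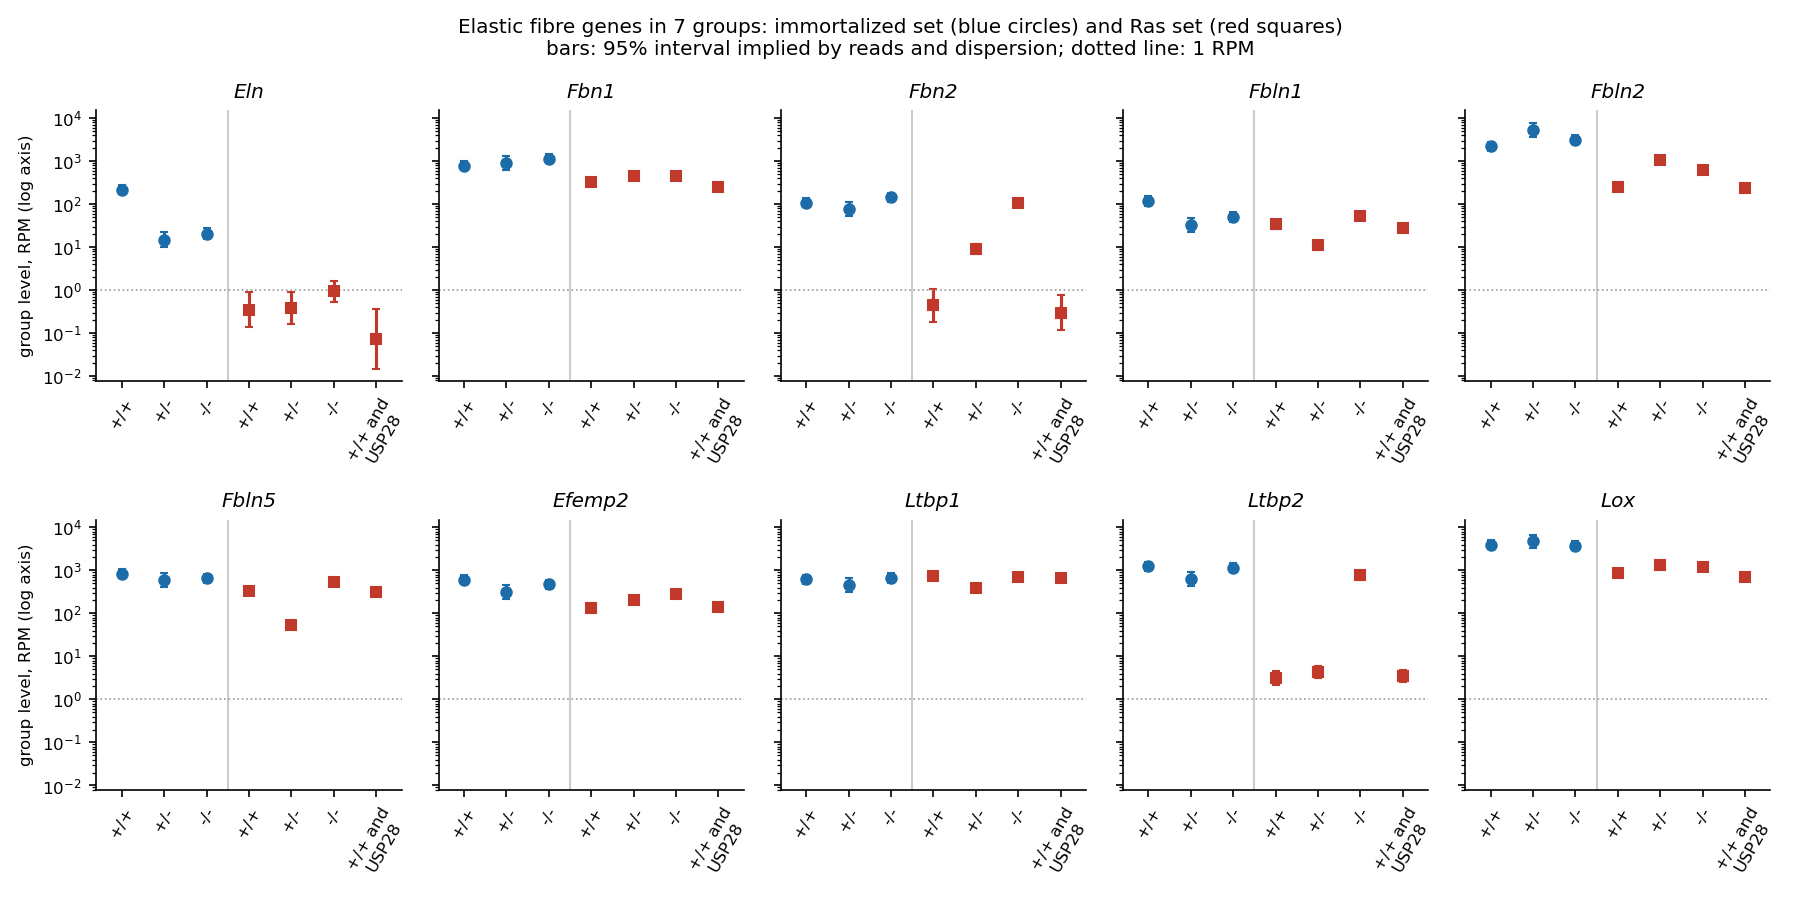
Group levels of the 10 genes in RPM on a log axis, for the 3 immortalized groups (blue circles) and the 4 Ras groups (red squares), with bars for the 95% interval implied by reads and dispersion. Eln lay at 14.8 to 217 RPM in the immortalized set and under 1 RPM in the Ras set, and Fbn2 and Ltbp2 spanned more than 200-fold among the Ras groups.

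Eln (ENSMUSG00000029675, GRCm38 chr5:134702593-134747323, minus strand) encodes tropoelastin, the core of the fibre. Its levels were 217, 14.8 and 20.6 RPM in immortalized +/+, +/- and -/- cells. Both groups with a lost allele lay far under +/+ and close to each other. The log2 fold was -3.40 (SE 0.27, adjusted p = 4.77e-29) in -/- and -3.87 (SE 0.40, adjusted p = 1.34e-16) in +/-, against the same +/+ libraries. The direct difference of -/- minus +/- was 0.48 on the log2 scale (95% interval -0.47 to 1.43, adjusted p = 1.0) and was not called. Cartilage markers moved with it, their 5 genes summing to 320.3 RPM in +/+, 108 RPM in +/- and 111 RPM in -/-. Of these, 4 of 4 tested fell in -/- and 3 of 4 in +/-, where 2.93% and 3.21% of all genes were called lower. Acan passed the level minimum in +/- only through +/+ (7.79 RPM, against 0.830 RPM). Fibroblast markers fell in 5 of 10 in -/-, among them Lum (-3.32), Dcn (-2.87) and Pdgfra (-1.86). In +/- 2 of 10 fell, Lum (-4.91) and Pdgfra (-2.14), while Dcn went from 45.7 to 94.7 RPM (1.05) and was not called. Col1a1 (-0.37 and -0.13) and Vim (-0.02 and -0.17) were not called in either group. Smooth muscle markers went the other way, with 2 of 6 higher in -/- and 3 of 6 in +/-, and 0 lower in either. Of all genes 1.29% and 5.04% were called higher there. Des, among those higher in both, passed the level minimum only through the group with a lost allele. The part of these markers in the fall of Eln was not tested. In bulk RNA, fewer cells of a type and less RNA per cell cannot be told apart.

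Ras cells had Eln near the limit of detection. It rested on 4 reads in +/+ (0.351 RPM), 5 in +/- (0.378 RPM), 13 in -/- (0.932 RPM) and 1 with USP28 (0.0745 RPM). None of the 3 Ras comparisons reached the minimum of 1 RPM for Eln. The log2 fold was 1.41 in -/- (95% interval -0.19 to 3.00) and 0.11 in +/- (-1.74 to 1.95). For -/- the deposited edgeR p, adjusted here without a level minimum, gave adjusted p = 0.209. With USP28 the ratio was -2.24 with a counting interval of -7.86 to 1.10. No difference of Eln between Ras groups was detectable at this depth against +/+.

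The fibrillin genes build the microfibril. Fbn1 (ENSMUSG00000027204, GRCm38 chr2:125300594-125507993, minus strand) encodes the fibrillin that predominates in adult microfibrils. Its levels were 769.7, 909 and 1119 RPM in immortalized +/+, +/- and -/- cells, and in the Ras set 333 RPM in +/+, 461 RPM in +/-, 456 RPM in -/- and 248 RPM with USP28. None of the 5 comparisons called it, with log2 folds from -0.42 to 0.54 and adjusted p from 0.0646 to 1.0. Its exons share 2442 bases with Gm9913 on the other strand, whose use in the authors' counting is not given in the sources used here.

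Fbn2 (ENSMUSG00000024598, chromosome 18) encodes the fibrillin best known from embryonic tissue. Immortalized cells had 107 RPM (+/+), 78.3 RPM (+/-) and 145 RPM (-/-), and neither comparison was called (log2 folds -0.45 and 0.44, adjusted p = 0.852 and adjusted p = 0.436). In the Ras set it measured 0.438 RPM in +/+ (5 reads), 9.15 RPM in +/- (121 reads), 106 RPM in -/- (1478 reads) and 0.298 RPM with USP28 (4 reads). The 4 Ras groups thus stood at 3 levels, near 0 in both +/+ groups, intermediate in +/- and high in -/-. The log2 fold was 7.92 in -/- (SE 0.65, adjusted p = 1.24e-85) and 4.38 in +/- (SE 0.66, adjusted p = 1.85e-17). Ras -/- exceeded +/- by 3.53 on the log2 scale (95% interval 2.90 to 4.17, adjusted p = 1.29e-25). Ras +/+ cells reached the minimum level for these tests only through the group they were compared with. As a share of both fibrillins within a group, per kilobase of exon, Fbn2 made up 11.3% in immortalized +/+, 7.33% in +/- and 10.6% in -/-. Among Ras groups that share was 0.121% in +/+, 1.79% in +/-, 17.6% in -/- and 0.110% with USP28.

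The fibulin genes code for calcium-binding glycoproteins that bridge elastin, fibrillin and basement membrane. Fbln1 (ENSMUSG00000006369, GRCm38 chr15:85205949-85286535, plus strand) encodes a fibulin found within the elastin core. Its levels were 118, 32.3 and 50.01 RPM in immortalized +/+, +/- and -/- cells. Fbln1 fell with Eln in both, by log2 folds of -1.86 (SE 0.40, adjusted p = 8.42e-05) in +/- and -1.23 (SE 0.26, adjusted p = 0.000183) in -/-. Ras cells had 33.6 RPM (+/+), 11.0 RPM (+/-), 52.8 RPM (-/-) and 28.3 RPM (USP28). There the 2 genotypes moved apart, with -1.62 in +/- (SE 0.25, adjusted p = 1.14e-09) and 0.65 in -/- (SE 0.23, adjusted p = 0.019), the latter not called with a doubled dispersion (adjusted p = 0.146). The direct difference of Ras -/- minus +/- was 2.26 (95% interval 1.63 to 2.89, adjusted p = 6.71e-11).

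Fbln2 (ENSMUSG00000064080, GRCm38 chr6:91212455-91272540, plus strand) encodes a fibulin of microfibrils and basement membranes. It was highest in +/- in both sets. Levels were 2207, 5391 and 3138 RPM in immortalized +/+, +/- and -/- cells, and 243, 1049, 612 and 241 RPM in Ras +/+, +/-, -/- and USP28 cells. The rise was 1.29 in immortalized +/- (SE 0.39, adjusted p = 0.0127), which was lost with a doubled dispersion (adjusted p = 0.247). In the Ras set it was 2.11 in +/- (SE 0.21, adjusted p = 1.77e-21) and 1.33 in -/- (SE 0.21, adjusted p = 5.53e-09), while immortalized -/- was not called (0.51, SE 0.25, adjusted p = 0.318). The sum of the mesothelial and epithelial markers was also highest in +/- of each set, at 1905 and 3014 RPM. Of these markers, Msln was called lower in Ras +/- (425 to 209 RPM, log2 fold -1.02). The part of the markers in the Fbln2 level was not tested. Ras -/- lay under +/- by a log2 difference of -0.78 (adjusted p = 0.0419), a call lost without a level minimum (adjusted p = 0.0506) and with a doubled dispersion (adjusted p = 0.282).

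Fbln5 (ENSMUSG00000021186, GRCm38 chr12:101746565-101819055, minus strand) encodes a short fibulin that tethers elastin to cells and to microfibrils. Immortalized cells had 834 RPM (+/+), 613 RPM (+/-) and 665 RPM (-/-), with neither comparison called (log2 folds -0.44 and -0.33, adjusted p = 0.851 and adjusted p = 0.633). Ras cells had 324 RPM (+/+), 54.0 RPM (+/-), 538.5 RPM (-/-) and 307 RPM (USP28). The +/- group lay below the other 3 Ras groups. Smooth muscle markers (6 genes) summed to 3920 RPM in Ras +/+, 482 RPM in +/-, 1950 RPM in -/- and 4290 RPM with USP28, and their part in the Fbln5 level was not tested. The log2 fold was -2.59 in +/- (SE 0.21, adjusted p = 1.51e-29) and 0.73 in -/- (SE 0.21, adjusted p = 0.00301, or adjusted p = 0.0703 with a doubled dispersion). Ras -/- exceeded +/- by 3.32 (95% interval 2.73 to 3.90, adjusted p = 1.97e-26).

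Efemp2 (ENSMUSG00000024909, GRCm38 chr19:5473954-5482517, plus strand) encodes the short fibulin that brings lysyl oxidase to the elastin precursor. Its levels were 607.5, 316 and 475 RPM in immortalized +/+, +/- and -/- cells, with neither called (log2 folds -0.94 and -0.36, adjusted p = 0.133 and adjusted p = 0.582). Its level rose in Ras cells from 135 RPM in +/+ to 207 RPM in +/- (log2 fold 0.61, SE 0.21, adjusted p = 0.0131) and to 277 RPM in -/- (1.04, SE 0.21, adjusted p = 1.24e-05). With USP28 it measured 143 RPM. Its exons share 173 bases with Mus81, which measured 19.3 to 20.6 RPM in the immortalized groups and 15.3 to 17.4 RPM in the Ras groups. The call in +/- was lost with a doubled dispersion (adjusted p = 0.124).

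Latent TGF-beta binding proteins differ in that the product of Ltbp1 binds latent TGF-beta, while that of Ltbp2 binds fibrillin and does not carry the growth factor. Ltbp1 (ENSMUSG00000001870, GRCm38 chr17:75005568-75392512, plus strand) was among the most abundant members per kilobase in Ras +/+. Levels were 626, 465 and 666 RPM in immortalized +/+, +/- and -/- cells, and 730.2, 386, 697 and 672 RPM in Ras +/+, +/-, -/- and USP28 cells. Ras +/- was the only comparison of the 5 in which it was called, lower by a log2 fold of -0.92 (SE 0.21, adjusted p = 6.22e-05).

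Ltbp2 (ENSMUSG00000002020, GRCm38 chr12:84783212-84876532, minus strand) separated Ras -/- from every other Ras group. Levels were 3.22 RPM in Ras +/+ (37 reads), 4.31 RPM in +/- (57 reads), 3.50 RPM with USP28 (47 reads) and 768 RPM in -/- (10671 reads). The log2 fold of -/- was 7.90 (SE 0.32, adjusted p = 5.05e-140), and those of +/- (0.42, adjusted p = 0.425) and USP28 (0.12, adjusted p = 1.0) were not called. Ras -/- exceeded +/- by 7.46 (95% interval 6.78 to 8.15, adjusted p = 9.25e-97). Immortalized cells had 1258 RPM (+/+), 623 RPM (+/-) and 1153 RPM (-/-), with neither called (log2 folds -1.01 and -0.13, adjusted p = 0.0878 and adjusted p = 0.913). Per kilobase of exon, Ltbp2 made up 72.4%, 63.7% and 69.3% of Ltbp1 plus Ltbp2 in immortalized +/+, +/- and -/-. Its share among Ras groups was 0.572% in +/+, 1.44% in +/-, 59.0% in -/- and 0.675% with USP28. Exons of Ltbp2 share 764 bases with D030025P21Rik on the other strand, which measured 0 RPM (at most 0.264 RPM) in Ras +/+, 0.227 RPM in +/-, 61.6 RPM in -/- and 0.298 RPM with USP28. Reads in the shared bases cannot be assigned to either gene with certainty. Xist and Eif2s3y also separated Ras -/- from Ras +/+, and the part of culture origin in the Ltbp2 and Fbn2 levels was not tested.

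Lox (ENSMUSG00000024529, chromosome 18) encodes lysyl oxidase, the copper enzyme that starts the cross-linking of elastin and collagen. It was the most abundant member per kilobase of exon in each of the 7 groups, although Fbln2 was within the implied error of it in immortalized +/-. Its level was 3919, 4703 and 3735 RPM in immortalized +/+, +/- and -/- cells, and 869, 1361, 1171 and 702 RPM in Ras +/+, +/-, -/- and USP28 cells. One comparison called it, Ras +/-, with a log2 fold of 0.65 (SE 0.21, adjusted p = 0.00686, or adjusted p = 0.0946 with a doubled dispersion).

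**Figure D2:**
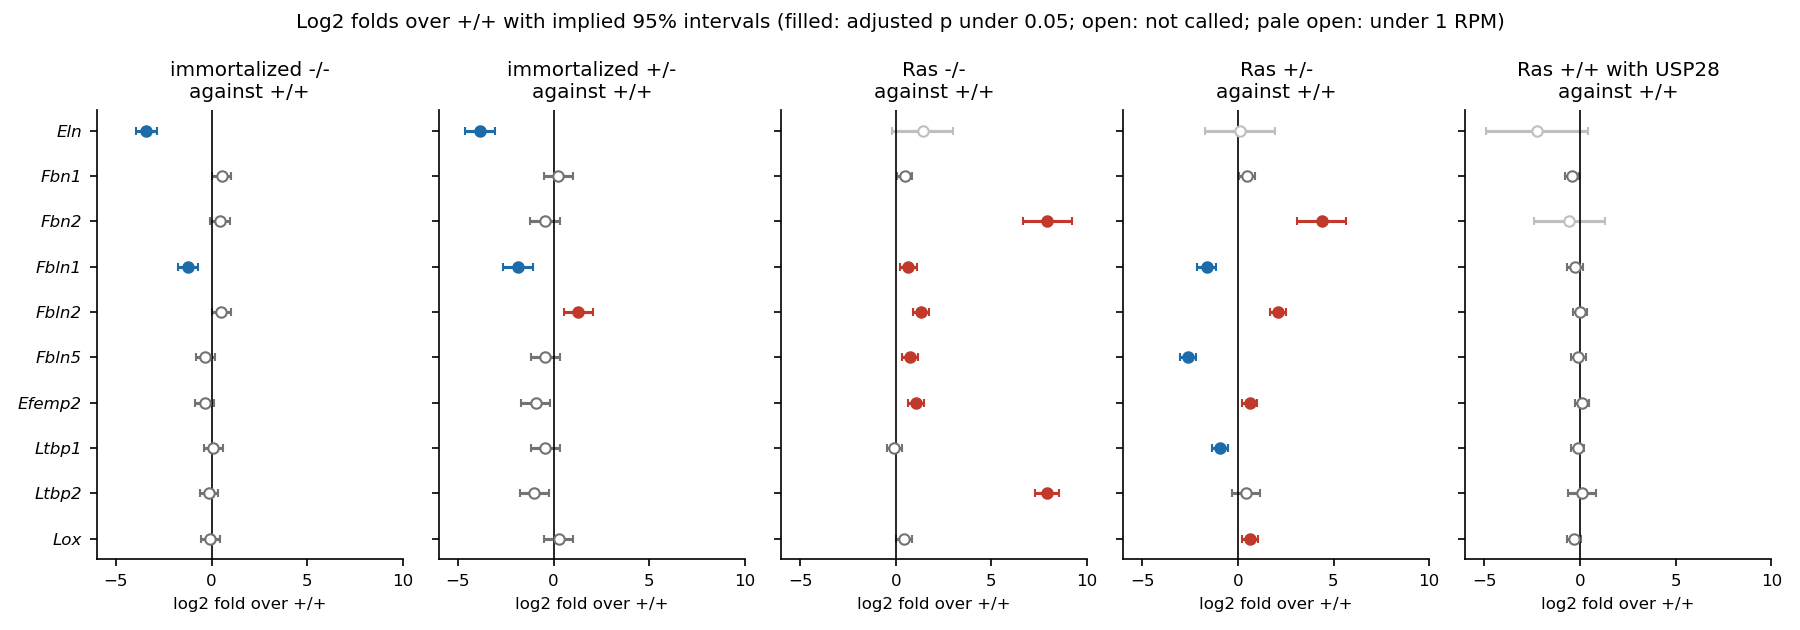
Log2 folds over +/+ of the 10 genes in the 5 comparisons, with implied 95% intervals (filled points were called, open points were not, pale open points were under 1 RPM). Eln and Fbln1 lie under 0 in both immortalized panels, and Fbn2 and Ltbp2 lie near 8 in Ras -/-.

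By comparison, immortalized -/- had 2 of 10 members lower and 0 higher, where 4.21% of 16727 genes were called, 1.29% higher and 2.93% lower. The median log2 fold of the members was -0.10, beside 0.07 over all genes tested. Immortalized +/- had 2 lower and 1 higher of 10, where 8.25% of 17035 genes were called, 5.04% higher and 3.21% lower. The members' median was -0.45, beside 0.00. Ras -/- had 6 higher and 0 lower of the 9 tested, where 27.6% of 15868 genes were called, 15.2% higher and 12.4% lower. The members' median was 0.73, beside -0.01. One of those 6, Fbn2, passed the level minimum only through the -/- group. Fibroblast markers moved with them, with 6 of 9 tested higher and 0 lower (median 1.66), among them Col3a1 (1.97), Pdgfra (2.07) and Pdgfrb (1.66). Of those 6, Dcn (4 reads in +/+) and Lum (0 reads in +/+) passed the level minimum only through the -/- group. Smooth muscle markers were lower in 4 of 5, of which Cnn1 passed only through +/+ (1.94 RPM, against 0.430 RPM in -/-). The part of either marker list in the members' levels was not tested. Ras +/- had 4 higher and 3 lower of 9, where 34.1% of 15950 genes were called, 17.5% higher and 16.7% lower. One of those 4, again Fbn2, passed only through the +/- group. The members' median was 0.47, beside 0.01. These medians describe the list, and they were not tested.

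Ras +/+ cells labelled with the USP28 vector, in which Usp28 RNA was not higher than in +/+, gave 0 calls among the 8 members tested, where 1.09% of 15444 genes were called, 0.0907% higher and 0.997% lower, by the deposited edgeR p adjusted here. The log2 folds of the 8 ran from -0.42 for Fbn1 to 0.12 for Ltbp2. Fbn1 was the single member with an unadjusted p under 0.05 (p = 0.0217 in the authors' deposited edgeR table, adjusted p = 0.777), and its 95% interval was -0.79 to -0.06. For Fbln2 the interval was -0.38 to 0.36 and for Fbln5 -0.44 to 0.29. The authors' own adjusted p was 1 for all 10 members.

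Set directly against Ras -/-, Ras +/+ cells with USP28 were lower in 6 of 8 members tested and higher in 0, where 16.2% of 15266 genes were called, 7.06% higher and 9.18% lower. Genotype, vector and sex-linked RNA differ between these groups, with Xist at 323 RPM with USP28 and 0.215 RPM in -/-. The differences ran from -7.76 for Ltbp2 (95% interval -8.45 to -7.08) through -1.34 for Fbln2 (-1.89 to -0.80) to -0.81 for Fbln5 (-1.36 to -0.26, adjusted p = 0.0273). Between the last of these lay Efemp2 (-0.95), Fbln1 (-0.90) and Fbn1 (-0.88), also called lower. Ltbp1 (-0.05, adjusted p = 0.935) and Lox (-0.74) were not called, although Lox was called with differences centred on the median gene (adjusted p = 0.0349). With a doubled dispersion 2 of the 6 calls were left, and at an adjusted p under 0.01 there were 3. Fbn2 was under the minimum in the USP28 comparison. Without that minimum its difference was -8.31 (95% interval -9.75 to -6.87, adjusted p = 4.69e-27).

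Ras -/- against +/- called 5 members higher and 1 lower of 9, where 20.7% of 15405 genes were called, 11.2% higher and 9.41% lower. Those higher were Ltbp2, Fbn2, Fbln5, Fbln1 and Ltbp1 (0.85, adjusted p = 0.0232), and Fbln2 was lower. Fbn1 (-0.01, 95% interval -0.59 to 0.56), Efemp2 (0.42) and Lox (-0.22) were not called. In the immortalized set, -/- against +/- called 0 of 10 members, where 3.31% of 16518 genes were called, 1.18% higher and 2.12% lower, by the Wald test on the deposited edgeR ratios. At an unadjusted p under 0.05 the count was also 0. This test gives each group the sum of both dispersions, which widens its errors. For Ltbp2 the SE was 0.46, beside 0.25 (-/-) and 0.39 (+/-) against +/+. The absence of calls therefore does not show that immortalized -/- and +/- cells are alike. The widest differences there were 0.89 for Fbn2 (-0.03 to 1.80, adjusted p = 0.605), 0.89 for Ltbp2 (-0.02 to 1.80, adjusted p = 0.596) and -0.78 for Fbln2 (-1.69 to 0.13, adjusted p = 0.789).

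**Figure D3:**
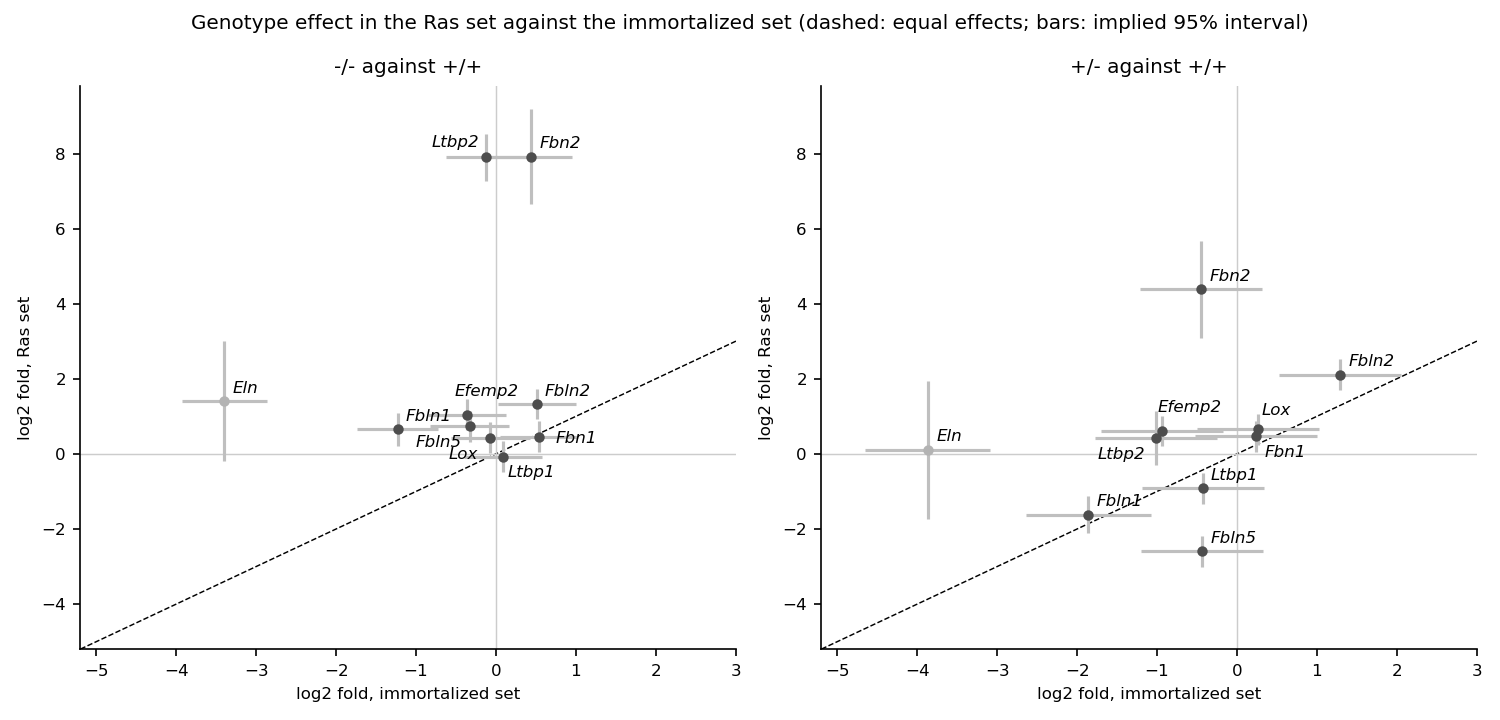
Log2 fold of each gene in the Ras set (vertical axis) against the immortalized set (horizontal axis), for -/- (left) and +/- (right), with implied 95% intervals and a dashed line of equal effects. Ltbp2 and Fbn2 lie far above the line for -/-, and Fbln5 lies below it for +/-.

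The effect of genotype was then compared between the sets, each against its own +/+ libraries. For -/- the effect in Ras cells exceeded that in immortalized cells in 5 of 9 members and was lower in 0, where 20.5% of 15068 genes were called, 11.4% higher and 9.15% lower. Ltbp2 (8.01, SE 0.40, adjusted p = 9.91e-84), Fbn2 (7.35, SE 0.70), Fbln1 (1.88, SE 0.35), Efemp2 (1.39, SE 0.33) and Fbln5 (1.06, SE 0.33) made up these 5. With a doubled dispersion Fbln5 was not called (adjusted p = 0.141). For +/- there were 2 higher and 1 lower of 9, where 12.9% of 15211 genes were called, 6.64% higher and 6.24% lower. Fbn2 (4.70, SE 0.77) and Efemp2 (1.56, SE 0.44) were higher and Fbln5 (-2.14, SE 0.45) was lower in the Ras set. Efemp2 was not called with a doubled dispersion (adjusted p = 0.138). In both counts Fbn2 passed the minimum in the Ras set only through the group where it is high, and at a minimum of 5 RPM it was not tested for +/-. For Fbln1, lower in +/- of both sets, the effects had a difference of 0.25 (95% interval -0.67 to 1.17).

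Other genes of elastic fibre assembly were taken from a list of 25, of which 24 matched a symbol. In immortalized -/- 1 rose and 6 fell of 23 tested, where 1.29% of all genes were called higher and 2.93% lower. In immortalized +/- 4 rose and 4 fell of 23, beside 5.04% and 3.21% of all genes. Among Ras cells 13 rose and 6 fell of 22 tested in -/-, beside 15.2% and 12.4% of all genes, and 8 rose and 8 fell of 21 in +/-, beside 17.5% and 16.7%. Some of these passed the level minimum only through the group where they are high. In the -/- comparison these were Fbln7 (through -/-) and Efemp1, Mfap4 and Hmcn1 (through +/+). In the +/- comparison they were Mfap5, Emilin2, Mfap4 and Hmcn1, all through +/+. With USP28 0 of 21 were called, beside 1.09% of all genes. At an unadjusted edgeR p under 0.05 the USP28 comparison held 3, Tgfb2 (-0.80), Loxl2 (4.02 to 2.01 RPM) and Efemp1 (0.53), and by the authors' adjusted p it held 0. Efemp1, a short fibulin, took both directions. It rose from 18.3 to 59.8 RPM in immortalized -/- (log2 fold 1.71, SE 0.27) and to 357 RPM in immortalized +/- (4.30, SE 0.40). In Ras cells it went from 38.2 RPM in +/+ to 0.143 RPM in -/- (2 reads, -8.05 with a counting interval of -11.10 to -6.19) and to 196 RPM in +/- (2.36, SE 0.22, named after its value was seen). Fbln7, another fibulin, fell from 20.7 to 4.195 RPM in immortalized -/- (-2.30, SE 0.34) and to 1.77 RPM in +/- (-3.54, SE 0.50). In Ras -/- it went from 2 to 67 reads (4.78, counting interval 2.87 to 7.85). Hmcn1 (-1.86) and Ltbp4 (-1.55) fell in immortalized -/-. Mfap5, a glycoprotein of microfibrils, fell from 91.1 to 13.7 RPM in immortalized +/- (-2.73, SE 0.41) and from 33.0 to 0.303 RPM in Ras +/- (-6.77, SE 0.71). Loxl2, a relative of lysyl oxidase, rose in +/- of both sets, from 173 to 1368 RPM (2.99, SE 0.39) and from 4.02 to 236 RPM (5.88, SE 0.30). In Ras -/- Loxl2 fell, from 4.02 to 1.22 RPM (-1.72, SE 0.46). The summed mesothelial and epithelial markers were higher in +/- of both sets, at 1905 and 3014 RPM against 69.0 and 497 RPM, although Msln was lower in Ras +/-. The part of these markers in the Loxl2 and Efemp1 levels was not tested. Emilin2, which codes for an elastin-interface protein, rose in Ras -/- (13.0 to 112 RPM, 3.11) and fell in Ras +/- (-4.25, SE 0.53).

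Elastin breakdown genes, matrix proteases, cathepsins and their inhibitors, had 9 on the list. In immortalized cells 0 rose and 2 fell of 7 tested in -/- (4.21% of all genes called), and 1 rose and 1 fell of 7 in +/- (8.25%). Among Ras cells 2 rose and 1 fell of 6 in each of -/- (27.6% of all genes called) and +/- (34.1%), and 1 of 6 fell with USP28 (1.09%). Timp3, an inhibitor of metalloproteases held in the matrix, rose from 100.3 RPM in Ras +/+ to 3891 RPM in -/- (5.28, SE 0.21) and 2386 RPM in +/- (4.57, SE 0.21). It also rose in immortalized +/-, from 695 to 3500 RPM (2.33, SE 0.39). With USP28 Timp3 fell to 62.5 RPM (-0.68, SE 0.19, adjusted p = 0.0414 by the deposited edgeR p adjusted here), while its adjusted p in the authors' deposited table was 0.0900. The protease gene Mmp2 rose too, from 181 RPM in Ras +/+ to 739 RPM in -/- (2.03, SE 0.21) and 563 RPM in +/- (1.64, SE 0.21). In immortalized -/- Mmp2 instead fell, from 1091 to 512 RPM (-1.09, SE 0.25). The cathepsin gene Ctsk fell in immortalized -/- (-1.39, SE 0.27) and +/- (-2.47, SE 0.41). The gene that fell was Timp1 in Ras -/- (-0.79) and Mmp14 in Ras +/- (-1.52).

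**Figure D4:**
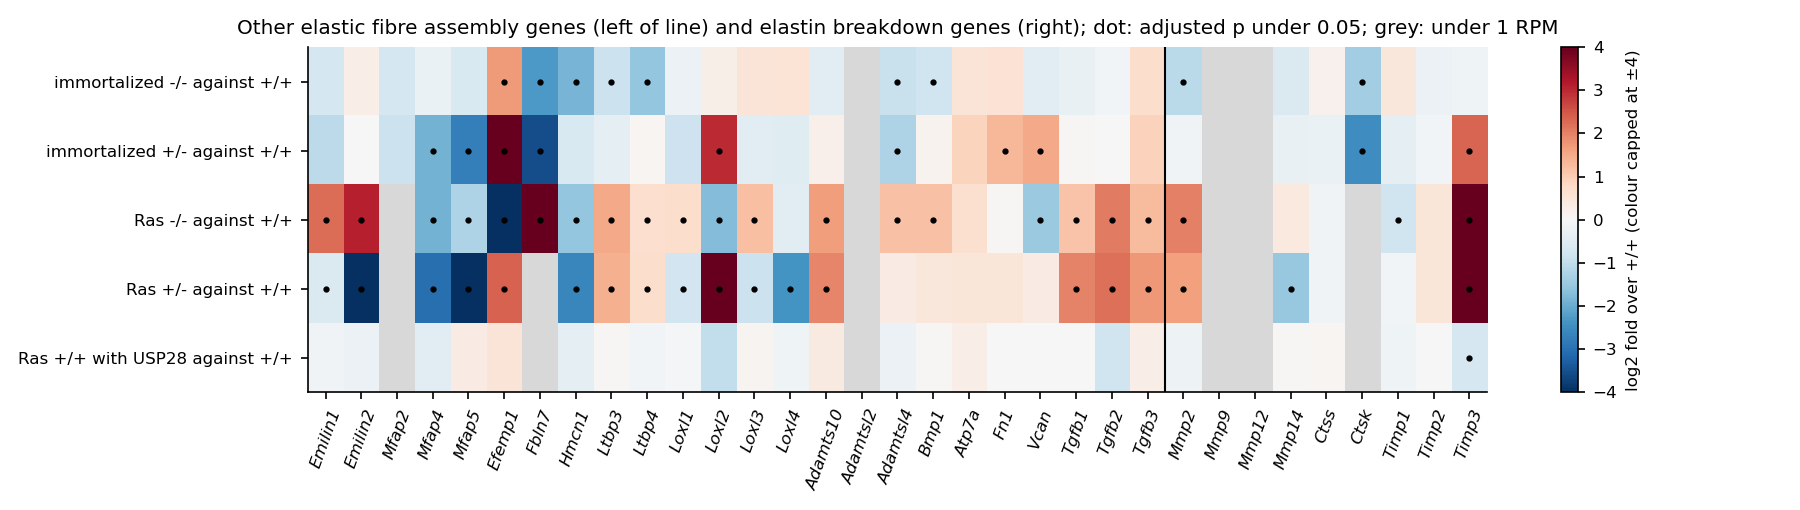
Log2 folds over +/+ of the other assembly genes (left of the line) and the elastin breakdown genes (right) in the 5 comparisons, with dots on called genes and grey where a gene was under 1 RPM. Timp3 has a dot in 4 of the 5 comparisons, and it is the only called gene of either list with USP28.

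Per kilobase of merged exon, the order of the members in immortalized +/+ was Lox (820.2 RPM per kilobase), Fbln2 (346.5), Efemp2 (160.4), Ltbp2 (154), Fbln5 (121), Fbn1 (63.5), Ltbp1 (58.6), Fbln1 (26.9), Eln (26.8) and Fbn2 (8.09). Neighbours within the implied error of each other were Efemp2 and Ltbp2, Ltbp2 and Fbln5, Fbn1 and Ltbp1, and Fbln1 and Eln. In Ras +/+ the order was Lox (182), Ltbp1 (68.3), Fbln5 (46.9), Fbln2 (38.1), Efemp2 (35.7), Fbn1 (27.4), Fbln1 (7.70), Ltbp2 (0.393), Eln (0.0434) and Fbn2 (0.0332). There the steps from Fbln5 to Fbln2, Fbln2 to Efemp2, Efemp2 to Fbn1 and Eln to Fbn2 were within the implied error. In Ras -/- Ltbp2 stood at 93.9 RPM per kilobase, within the error of Fbln2 (96.0) and Fbln5 (77.9).

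Among 11454 genes with at least 5 RPM in each comparison, those nearest to Eln over the 5 log2 folds were Adh7, Foxf2, Pdgfra, Egr1 and Cenpp, at root mean square distances of 1.37 to 1.58 on the log2 scale. The 3 Ras folds of Eln rest on 1 to 13 reads a group. Nearest to the mean of the members' folds, among 11447 genes, were Ifitm3 (0.21), Parp9 (0.28), Aebp1 (0.29), Arsb (0.29) and Mrps6 (0.31). That mean was 2.18 in Ras -/-, where Fbn2 and Ltbp2 lie near 8. It also holds the Ras folds of Eln, such as -2.24 with USP28, where the mean was -0.38.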

How the data were processed

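RNA of 17 libraries in 7 groups was measured by sequencing of poly(A) RNA, prepared with either of 2 NEBNext kits per the labels' protocols. Reads were processed by the authors with CASAVA and FastQC, aligned to mm9 with Bowtie 0.12.8 and compared with edgeR, per the submitters' processing notes. The counter and its use of strand are not given in the sources used here. The deposited tables hold comparisons alone. Each gives a log2 concentration, the log2 ratio with +/+ on top and a p-value, per the file headers, and the Ras table an adjusted p-value.

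Repeated lines (35 and 24, all identical) were dropped. Group levels are 2 to the power of the log2 concentration plus the log2 ratio divided by 2 for +/+, and minus it for the other group. The +/+ levels of the comparisons of a set then matched within 0.00293 on the log2 scale for each member. Depth was read from steps of 1 read in low values: in the range up to 20 reads, 81% to 100% were whole to within 0.1. The deposited p was adjusted by Benjamini and Hochberg's method over all genes at 1 RPM or more. A common dispersion fitted to the deposited p gave coefficients of variation of 21.3% (immortalized -/-), 33.1% (immortalized +/-), 14.5% (Ras -/-), 14.3% (Ras +/-) and 12.7% (USP28). Genes that vary more than the typical gene have errors that are too small, and p-values measure only the spread between these libraries. Differences between comparisons were tested with a Wald test with 0.5 reads added, with the sum of both dispersions for each group within a set. That sum gives wider errors than 1 dispersion per group would, so a missing call within a set is weak evidence of likeness. Counting intervals and floors (3 reads) cover counting error only. The functions were tested on simulated data. Coordinates and exon lengths are from GENCODE M21 (GRCm38) and were not used to locate reads. Promoters are from RefSeq. Python 3.11.15 and SciPy 1.17.1 were used.

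The members and gene lists were chosen with earlier results of these data known. The text names all members and up to 4 called genes of the other lists per comparison by absolute fold. Other genes of these lists and the markers named were chosen after their values were seen. These other genes are Efemp1 in Ras +/-, Loxl2 and Mfap4 in Ras -/-, Hmcn1 in the Ras set and Timp3 in immortalized +/-. The rest are Mmp2, Mmp14, Timp1, the TGF-beta ligands and those with a low unadjusted p with USP28. Alternatives were no level minimum, 5 RPM, an adjusted p under 0.01, doubled dispersion, centring on the median gene, 2 reads added and the authors' adjusted p.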

Additional observations from a re-analysis of the deposited data

Results flagged for a closer look

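In 8 cases the effect of a genotype differed between the Ras and the immortalized set when the difference itself was tested (Wald test), each fold against its own +/+ group. For -/- the difference, Ras minus immortalized, was 8.01 for Ltbp2, 7.35 for Fbn2, 1.88 for Fbln1, 1.39 for Efemp2 and 1.06 for Fbln5. For +/- it was 4.70 for Fbn2, 1.56 for Efemp2 and -2.14 for Fbln5. With a doubled dispersion Fbln5 for -/- (adjusted p = 0.141) and Efemp2 for +/- (adjusted p = 0.138) were not called, and Fbn2 reached the level minimum in the Ras set only through the group where it is high. Xist and Eif2s3y moved with the Ras -/- comparison. Xist also fell in Ras +/- (log2 fold -3.72) and rose in immortalized +/- (1.73). The summed mesothelial and epithelial markers were higher in +/- of both sets, from 69.0 to 1905 RPM and from 497 to 3014 RPM, although Msln was lower in Ras +/-. The part of all these genes in the differences was not tested.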

How the results depend on the processing

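No paired analysis was possible because the tables hold no values of single libraries, and for the same reason no library could be left out. Of 518 recomputed member values, 493 kept their direction and their side of the threshold, 22 lost a call and 2 gained one. In 1 case the sign turned: the Fbn1 effect of -/- in Ras minus immortalized cells was 0.02 after centring. With a doubled dispersion the genes called fell to 312 and 859 for immortalized -/- and +/-, 2678 for Ras -/-, 221 and 1729 for -/- against +/- in the immortalized and Ras sets, 1316 for USP28 against -/-, and 1663 and 1021 for the effects of -/- and +/- between sets. Members higher were then 0 in immortalized +/-, 2 in Ras +/- and 1 for +/- between sets, members lower 0 for Ras -/- against +/- and 2 for USP28 against -/-. At an adjusted p under 0.01 the genes called were 424 for immortalized -/- and 2040 and 1279 for -/- and +/- between sets, members higher 0 in immortalized +/-, and members lower 0 for Ras -/- against +/- and 3 for USP28 against -/-. At 5 RPM, with fewer genes tested, 325 genes were called for immortalized -/- against +/-, and members higher were 3 for Ras -/- against +/- and 1 for +/- between sets. With no level minimum 0 members were lower for Ras -/- against +/-. The cause of the changes without a level minimum was not tested. Adding 2 reads and the authors' adjusted p changed no member's call.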

Other observations

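Eln was left out of the tests between sets because its Ras levels were under 1 RPM. Without a level minimum its genotype effect was higher in the Ras set by 4.69 for -/- (95% interval 3.01 to 6.37, adjusted p = 1.42e-06) and by 3.94 for +/- (1.93 to 5.95, adjusted p = 0.00266), on 4 reads in Ras +/+. Ras cells with USP28 had 1 read of Eln against 13 in -/-, a difference of -3.11 (-5.61 to -0.62, adjusted p = 0.0969). The ratio of Lox to Eln per kilobase of exon, which does not depend on the scaling of a library, was 30.6 in immortalized +/+, 538 in +/- and 307 in -/-.

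Transcripts of all 3 TGF-beta ligands, which latent binding proteins store on microfibrils, were higher than in +/+ in both Ras genotypes. Tgfb2 went from 12.9 RPM in +/+ to 59.1 RPM in +/- (log2 fold 2.19, SE 0.24) and 55.0 RPM in -/- (2.09, SE 0.25). Tgfb3 went from 66.4 to 219.7 RPM (1.73, SE 0.21) and 161 RPM (1.28, SE 0.22), and Tgfb1 from 7.27 to 28.6 RPM (1.98, SE 0.27) and 15.9 RPM (1.13, SE 0.28). The 2 comparisons share the +/+ libraries, and 15.2% (-/-) and 17.5% (+/-) of all genes were called higher in them. In the immortalized set none of the 3 was called by the deposited edgeR p adjusted here. Their log2 folds in -/- and +/- were -0.29 and 0.06 for Tgfb1, -0.10 and -0.02 for Tgfb2, and 0.70 and 0.93 for Tgfb3, whose unadjusted p was under 0.05 in both. These ligands were singled out after their values were seen.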
